A study of Mus musculus with 4 samples.

Results

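Levels of 10 epithelial keratin genes were compared across 4 RNA sequencing libraries of liver cells from mice with alcoholic hepatitis. The genes were Krt5, Krt7, Krt8, Krt14, Krt17, Krt18, Krt19, Krt20, Krt23 and Krt80, chosen by name, and all 10 were found among the 41128 gene identifiers measured. All libraries came from C57BL/6 mice that took 40% of their calories from a high cholesterol fat diet eaten freely and 60% from an alcohol liquid diet given into the stomach, with a binge each week. There was no untreated group. Low-speed centrifugation took out hepatocytes, magnetic beads took out CD45+ leukocytes, and the remaining cells were sorted by flow cytometry on Prom1 (prominin 1), CD49f (integrin alpha 6, encoded by Itga6) and CD45 (encoded by Ptprc). The groups were Prom1+CD49f+CD45- cells, Prom1-CD49f+CD45- cells, cells labelled Prom1+CD49f+CD45+, and the presorted CD45- cells that these came from. Each group had 1 library made from the pooled RNA of 2 mice, so no difference below has a replicate check, and no test or p-value is given.

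Keratins are the intermediate filament proteins of epithelial cells. A filament is built from pairs of 1 type I and 1 type II keratin, so a cell that makes a type II keratin such as Krt8 also needs a type I partner such as Krt18. Hepatocytes and bile duct cells both contain Krt8 and Krt18, bile duct cells add Krt7 and Krt19, and Krt8 and Krt18 are the core of the Mallory-Denk bodies that ballooned hepatocytes form in alcoholic hepatitis. Krt23 is a type I keratin induced by stress and in reactive ductules, Krt17 marks injured and basal epithelium, Krt5 and Krt14 pair in the basal layer of stratified epithelia, Krt20 belongs to gut and urothelium, and Krt80 is a type II keratin of differentiating stratified epithelia.

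The gene counts of a library summed to between 14670414 and 52294143. Levels are given as scaled CPM (counts per 1e6 counts, with library sizes scaled by TMM, a trimmed mean of log ratios), with exact 95% Poisson intervals where intervals are shown. Ratios have exact 95% binomial intervals in parentheses. Called higher or lower means that the interval of the ratio is entirely past 2-fold, and 21640 genes with at least 10 counts in 1 library or more entered each comparison. Of the keratins, 9 of 10 passed this filter. Krt5 did not, with 0 counts in each of the 3 sorted libraries and 4 counts in the presorted one. Intervals cover counting error only, and amplified reads without molecular identifiers are not independent molecules. Of the genes of the sorted proteins, Prom1 and Ptprc followed the labels in both CD45- sorted libraries, whereas Itga6 was lower there than in presorted cells by value. Prom1 was at 355 scaled CPM in Prom1+CD49f+CD45- cells and 31.1 scaled CPM in Prom1-CD49f+CD45- cells. The library labelled Prom1+CD49f+CD45+ did not match in Prom1 and Ptprc. It held 11.4 scaled CPM of Prom1 and 14.5 scaled CPM of Ptprc, against 67.1 and 21.0 scaled CPM in the presorted library. Itga6 was highest by value in this labelled library, at 127 scaled CPM, which goes with the CD49f+ label.

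Keratin RNA was most abundant in the Prom1+CD49f+CD45- library and almost missing from the library labelled Prom1+CD49f+CD45+. The 10 genes together took 0.637% of all gene counts in Prom1+CD49f+CD45- cells, 0.240% in Prom1-CD49f+CD45- cells, 0.0103% for the library labelled Prom1+CD49f+CD45+ and 0.0961% for presorted cells. They were nearly all of the keratin RNA there was. Over the 54 keratin genes measured they held 99.9%, 99.7%, 91.6% and 99.6% of keratin counts in the same order of libraries. In bulk RNA, fewer cells of a type and less RNA per cell cannot be told apart. The 22 cholangiocyte markers summed to 56790 scaled CPM in Prom1+CD49f+CD45- cells, 21580 in Prom1-CD49f+CD45- cells, 3628 for the library labelled Prom1+CD49f+CD45+ and 13020 for presorted cells, which is the same order as the keratins. Aqp1, which endothelial cells also express, was 68.6% of the sum for the library labelled Prom1+CD49f+CD45+. Without it the sum there was 1141 scaled CPM, against 11090 scaled CPM before sorting. Clu alone was at 29910, 11340, 525 and 6632 scaled CPM in the 4 libraries, in the order of the sums above. Gene by gene, the markers in Prom1-CD49f+CD45- cells lay near presorted cells, with a median log2 ratio of 0.09. That of the keratins was 1.42. In that comparison 5 markers were called higher (8.59% of all genes were) and 3 lower (13.9% were). The part of bile duct cells in the keratin levels was not tested.

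**Figure D1:**
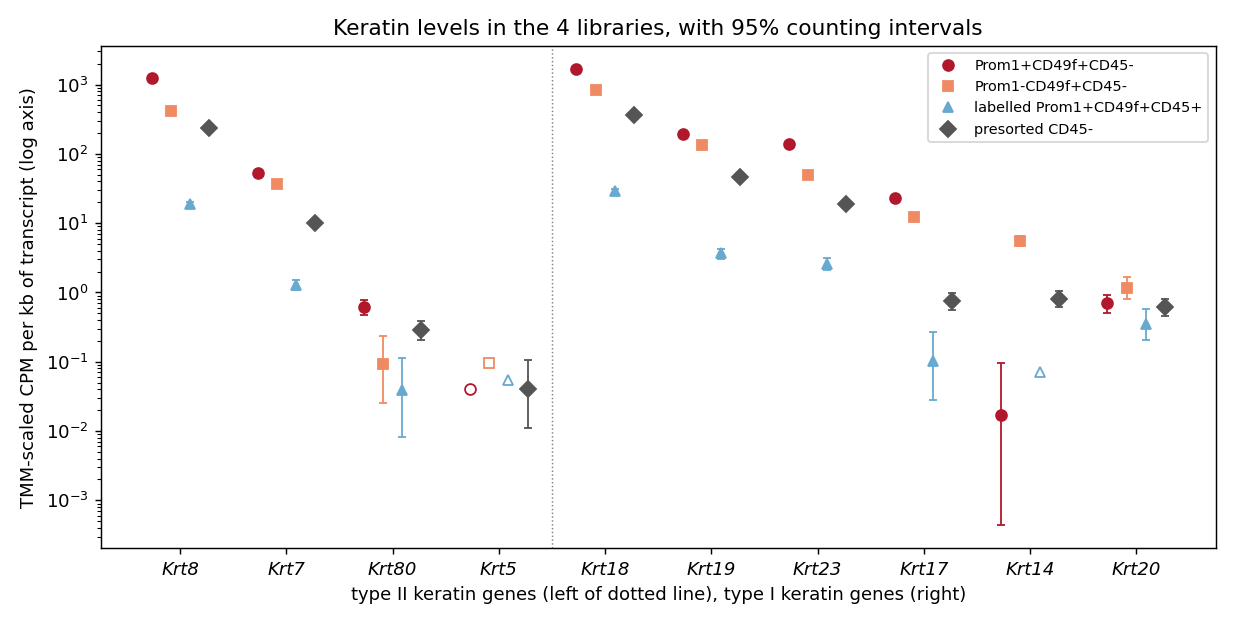
Level of each keratin gene in each library, as TMM-scaled CPM per kilobase of transcript on a log axis, with exact 95% Poisson intervals. Open symbols stand at the floor of 3 counts for libraries with 0 counts. Krt18 and Krt8 lie highest in all 4 libraries, and Krt14 and Krt20 have their highest level in the Prom1-CD49f+CD45- library, Krt14 with the wider gap.

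The pair Krt8 and Krt18 made up most of the keratin RNA in every library. Per kilobase of transcript, Krt18 was at 1678 scaled CPM per kb in Prom1+CD49f+CD45- cells, 834 in Prom1-CD49f+CD45- cells, 29.2 for the library labelled Prom1+CD49f+CD45+ and 359 for presorted cells. Krt8 was at 1243, 419, 19.1 and 238 scaled CPM per kb in the same libraries. Together they ranked among the most counted genes of the Prom1+CD49f+CD45- library, where Krt8 stood in place 25 and Krt18 in place 26 of 29700 genes with a count. In the presorted library Krt8 was in place 332 and Krt18 in place 305 of 22613 genes. Of the summed keratin level per transcript length, Krt18 took 50.4% in Prom1+CD49f+CD45- cells, 55.9% in Prom1-CD49f+CD45- cells, 51.8% for the library labelled Prom1+CD49f+CD45+ and 53.1% for presorted cells. Krt8 took 37.3%, 28.1%, 34.0% and 35.3% in that order. The pair thus held most of the keratin level in each library, whether that level was high or low.

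**Figure D2:**
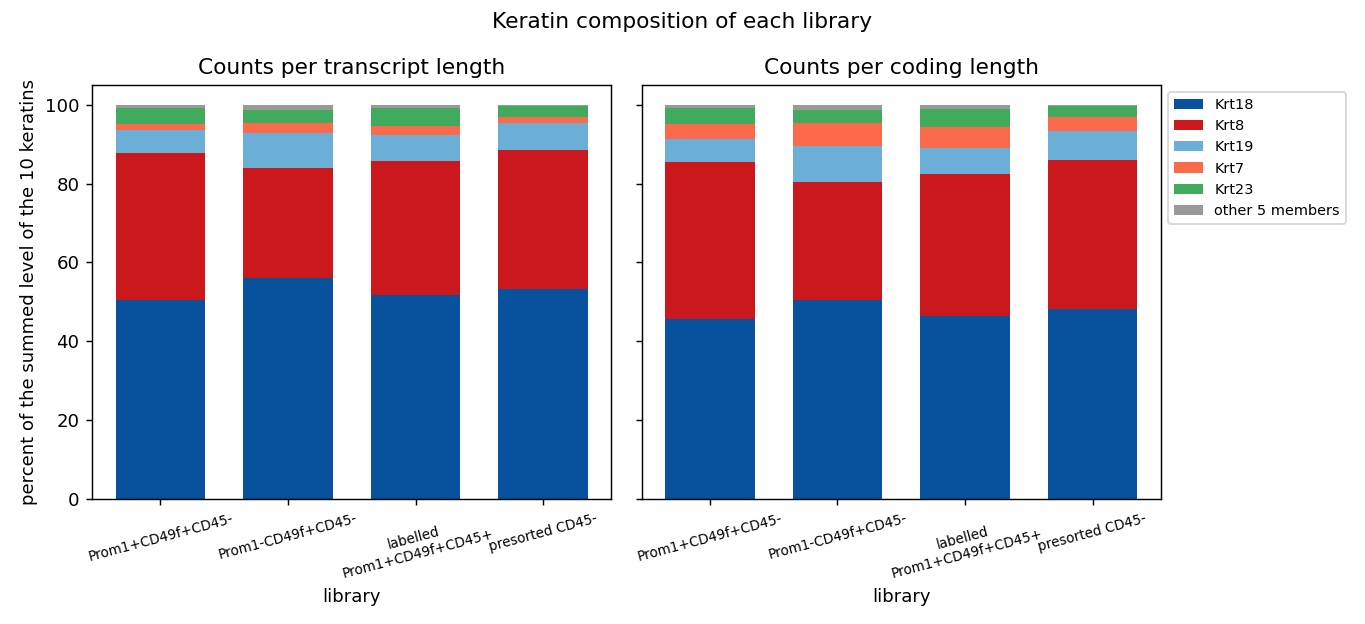
Share of each keratin in the summed level of the 10 genes in each library, per transcript length on the left and per coding length on the right, in percent. Krt18 and Krt8 fill most of each bar, and the Prom1-CD49f+CD45- library has the smallest Krt8 share, 28.1% per transcript length.

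The balance within the pair differed between the sorted populations. Krt8 had 83397 counts and Krt18 82654 counts in Prom1+CD49f+CD45- cells, a ratio of 1.01 (0.999 to 1.02). In the Prom1-CD49f+CD45- library they had 11627 and 16975 counts, a ratio of 0.685 (0.669 to 0.701). The library labelled Prom1+CD49f+CD45+ gave 0.893 (0.817 to 0.977) and the presorted library 0.904 (0.887 to 0.921). These ratios of 2 genes in 1 library need no scaling between libraries, but transcript length bears on them. With the length trend between the CD45- sorted populations removed, the ratio was 3.63 (3.56 to 3.70) for Krt8 and 3.08 (3.03 to 3.13) for Krt18, in place of 2.96 and 2.01. The Prom1-CD49f+CD45- library stood lowest and the Prom1+CD49f+CD45- library highest, and the intervals of the 2 other libraries overlapped each other. Summed by type and per kilobase, type II keratins were 0.638 of type I keratins in Prom1+CD49f+CD45- cells, 0.441 in Prom1-CD49f+CD45- cells, 0.570 for the library labelled Prom1+CD49f+CD45+ and 0.582 for presorted cells.

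Krt8 and Krt18 are neighbours in the genome, on chromosome 15 of GRCm38 (mm10). Krt8 lies on the minus strand at 101996698 to 102004482, and Krt18 on the plus strand at 102028180 to 102032027. Their starts face each other across 23698 bases, with 0 annotated genes between them in GENCODE vM21. Krt18 is the type I gene that sits beside the type II keratins Krt5, Krt7, Krt8 and Krt80 on chromosome 15, whereas Krt14, Krt17, Krt19, Krt20 and Krt23 lie on chromosome 11. The 250 bases before the RefSeq start (GRCm38.p6) of both partners are shown because their keratins pair, and those of Krt7 for comparison. RefSeq and GENCODE vM21 place these starts differently. The Krt7 stretch lies inside its GENCODE gene (101411043 to 101430313), and those of Krt8 and Krt18 overlap the 5′ ends of theirs. Sequences run 5′ to 3′ on each gene's own strand, with matches to the GC box GGGCGG on either strand in capitals.
Krt8, chr15:102004343-102004592, minus strand: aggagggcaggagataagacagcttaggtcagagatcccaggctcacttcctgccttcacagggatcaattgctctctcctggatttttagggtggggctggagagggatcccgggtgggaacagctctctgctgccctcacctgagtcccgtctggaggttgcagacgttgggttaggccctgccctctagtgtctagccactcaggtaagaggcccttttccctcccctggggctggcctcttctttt
Krt18, chr15:102027966-102028215, plus strand: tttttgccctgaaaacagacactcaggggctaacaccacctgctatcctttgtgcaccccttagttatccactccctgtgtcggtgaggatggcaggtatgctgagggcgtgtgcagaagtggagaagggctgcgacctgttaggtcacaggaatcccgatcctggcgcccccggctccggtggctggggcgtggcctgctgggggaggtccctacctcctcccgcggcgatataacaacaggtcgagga
Krt7, chr15:101412153-101412402, plus strand: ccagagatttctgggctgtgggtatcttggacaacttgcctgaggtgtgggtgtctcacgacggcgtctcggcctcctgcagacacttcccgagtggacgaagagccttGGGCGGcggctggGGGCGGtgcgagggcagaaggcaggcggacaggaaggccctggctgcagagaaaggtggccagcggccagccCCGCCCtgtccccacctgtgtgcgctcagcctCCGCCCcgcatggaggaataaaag
The TATA box TATAAA, the GC box GGGCGG, the AP-1 motif TGANTCA and the TEAD motif GGAATG were searched on both strands of the promoters that had an entry, which 7 of the 10 keratins did. Krt7 held 4 GC boxes, and a GC box was found in 32.7% of 32851 promoters of the same length. TATAAA was found in Krt20 and in 12.4% of all promoters, GGAATG in Krt14 and Krt20 and in 12.6%, and TGANTCA in 0 of the 7 and in 6.75%. A match describes the letters and not a bound site.

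Prom1+CD49f+CD45- cells had more Krt8 and Krt23 RNA than Prom1-CD49f+CD45- cells, 1.44-fold as much of the bile duct keratins Krt19 and Krt7, and far less Krt14. In this comparison 3 of the 9 keratins tested were called higher, where 14.0% of all genes tested were, and 1 was called lower, where 12.6% of all genes were. Krt8 was at 2433 scaled CPM in Prom1+CD49f+CD45- cells and 821 scaled CPM in Prom1-CD49f+CD45- cells, a ratio of 2.96 (2.91 to 3.02). Krt23 was at 217.8 and 78.3 scaled CPM in those libraries, a ratio of 2.78 (2.61 to 2.96). Krt80 was at 1.90 and 0.283 scaled CPM, a ratio of 6.71 (2.50 to 25.4) that rests on 65 and 4 counts. Krt18 was at 2412 scaled CPM in Prom1+CD49f+CD45- cells and 1199 scaled CPM in Prom1-CD49f+CD45- cells, and its ratio of 2.01 (1.98 to 2.05) reached just below 2-fold and was not called. The median log2 ratio was 0.93 over the 9 keratins and 0.33 over all genes tested. The calls depend on transcript length, which moved with the ratio in this comparison. With that trend removed, 6 keratins were called higher, with Krt17, Krt18 and Krt19 added, and with library totals in place of TMM Krt18 was called. With the deposited normalized values Krt80 was not called.

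**Figure D3:**
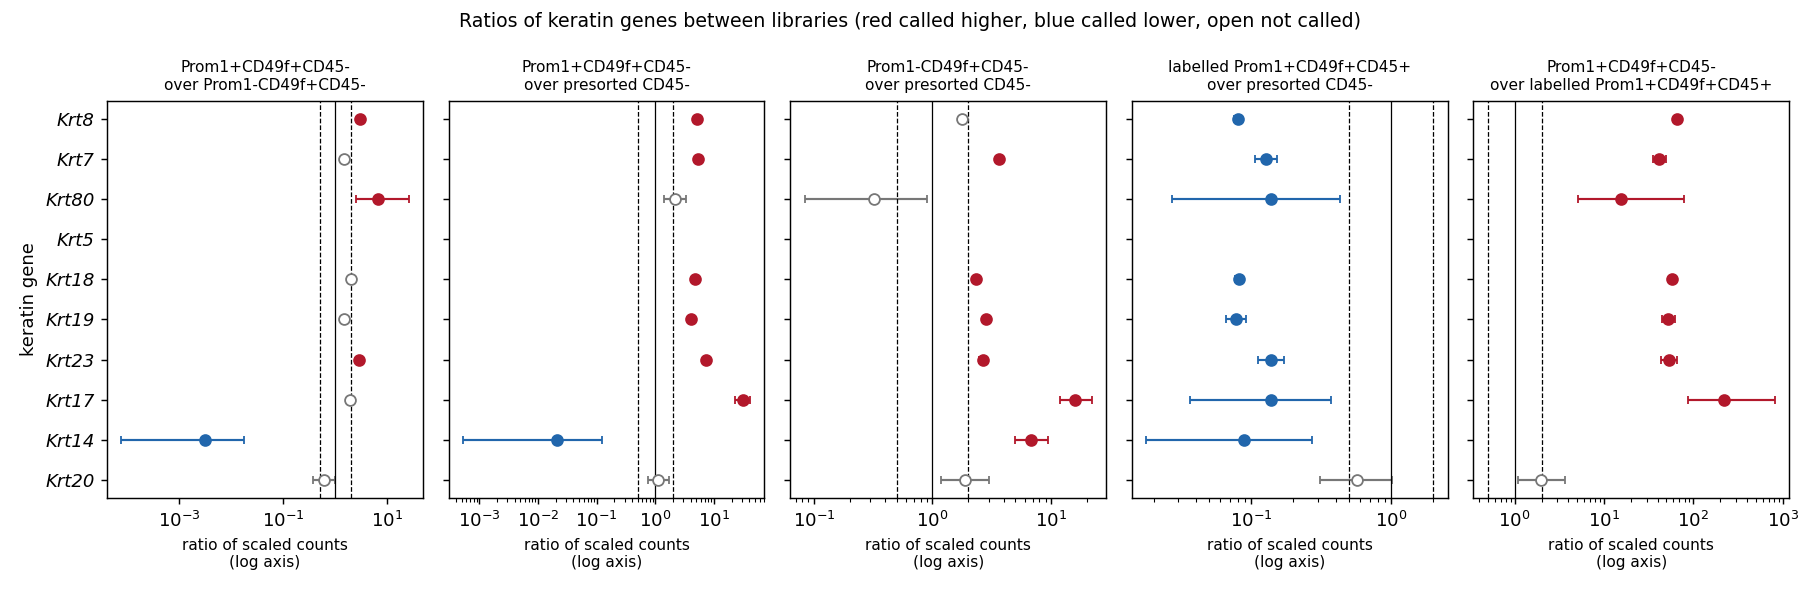
Ratio of scaled counts of each keratin in the 5 comparisons, on log axes, with exact 95% intervals. Dashed lines stand at 2-fold either way. Red points are called higher, blue points lower and open points not called. In Prom1+CD49f+CD45- cells against Prom1-CD49f+CD45- cells Krt14 is the only blue point, while in the library labelled Prom1+CD49f+CD45+ against presorted cells 8 keratins are blue.

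Against presorted cells, both CD45- sorted populations held more of most keratins. In Prom1+CD49f+CD45- cells 6 of 9 keratins were called higher (23.0% of all genes tested were) and 1 lower (15.2% were). In Prom1-CD49f+CD45- cells 6 of 9 were called higher (8.59% of all genes were) and 0 lower (13.9% were). Both comparisons use the same presorted library. The sets of 6 were not the same genes. Krt7, Krt17, Krt18, Krt19 and Krt23 were called in both, Krt8 in Prom1+CD49f+CD45- cells only and Krt14 in Prom1-CD49f+CD45- cells only. Krt8 was 5.22-fold (5.14 to 5.30) the presorted level in Prom1+CD49f+CD45- cells and 1.76-fold (1.72 to 1.80) in Prom1-CD49f+CD45- cells. Krt18 was 4.68-fold (4.61 to 4.75) and 2.33-fold (2.28 to 2.37) the presorted level in the same libraries. In Prom1-CD49f+CD45- cells the calls of Krt18, Krt19 and Krt23 were lost with the length trend removed, which left 3 keratins called higher, and the deposited normalized values put Krt8 above 2-fold.

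Krt19 and Krt7, the keratins that mark bile duct cells, were called higher in both CD45- sorted populations than in presorted cells and differed by less than 2-fold between the sorted populations. Krt19 was at 301 scaled CPM in Prom1+CD49f+CD45- cells, 209 in Prom1-CD49f+CD45- cells, 5.76 for the library labelled Prom1+CD49f+CD45+ and 74.1 for presorted cells. Krt7 was at 218.1, 151.5, 5.24 and 41.2 scaled CPM in the same libraries. Between the CD45- sorted populations the ratio was 1.44 for both, with intervals of 1.38 to 1.50 for Krt19 and 1.37 to 1.51 for Krt7. Their balance did not differ there beyond counting error. Krt7 counts were 0.724 (0.703 to 0.746) of Krt19 counts for Prom1+CD49f+CD45- cells and 0.726 (0.686 to 0.768) for Prom1-CD49f+CD45- cells, against 0.556 (0.525 to 0.589) before sorting. The library labelled Prom1+CD49f+CD45+ gave 0.909 (0.711 to 1.16), from 130 and 143 counts.

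The length of Krt7 bears on both statements. With the length trend removed, the ratio between the CD45- sorted populations was 1.02 (0.971 to 1.07) for Krt7, whose annotated transcript has 4094 bases, and 2.09 (2.01 to 2.18) for Krt19, whose transcript has 1576 bases. The coding part of Krt7 has 1371 bases, so its level against other keratins also depends on the length used. Krt7 took 1.60% of the keratin level in Prom1+CD49f+CD45- cells per transcript length and 3.82% per coding length, whereas Krt19 took 5.74% and 5.98%. The Krt7 transcript shares runs of 50 bases with 162 other genes, with at most 29 such runs for any 1 gene, and an antisense gene, Gm671, overlaps it. Krt8 shares 514 such runs with its pseudogene Krt8-ps. Reads of these genes cannot be told apart with certainty.

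Other cholangiocyte markers differed more between the CD45- sorted populations than Krt19 and Krt7 did. Of 22 markers, 19 were called higher in Prom1+CD49f+CD45- cells than in Prom1-CD49f+CD45- cells and 1 lower, with a median log2 ratio of 2.13. Of all genes tested, 14.0% were called higher and 12.6% lower. Cdh1, the epithelial cadherin, was at 2132 scaled CPM in Prom1+CD49f+CD45- cells and 183 scaled CPM in Prom1-CD49f+CD45- cells, a ratio of 11.6 (11.2 to 12.1). Epcam, the epithelial adhesion molecule, had a ratio of 2.45 (2.37 to 2.53). Clu, a secreted chaperone, had 2.64 (2.62 to 2.65), and the secreted matrix protein gene Spp1 had 2.40 (2.39 to 2.42). The 1 marker called lower was the water channel gene Aqp1. Within a library, Krt19 counts were 0.449 (0.439 to 0.460) of Epcam counts in Prom1+CD49f+CD45- cells, 0.762 (0.726 to 0.800) in Prom1-CD49f+CD45- cells, 0.552 (0.447 to 0.680) for the library labelled Prom1+CD49f+CD45+ and 0.691 (0.660 to 0.722) for presorted cells. Krt19 was also 0.125 (0.122 to 0.128) of Krt18 for Prom1+CD49f+CD45- cells and 0.174 (0.167 to 0.181) for Prom1-CD49f+CD45- cells. In counts, the Prom1-CD49f+CD45- library thus held more Krt19 relative to Epcam and to Krt18 than the other 3 libraries did. Its intervals met none of theirs, but transcript length bears on the ratio to Epcam. With the length trend removed, Krt19 in Prom1-CD49f+CD45- cells was 1.89-fold the presorted level and Epcam 2.07-fold, in place of 2.82 and 2.55. The excess over presorted cells relative to Epcam was then not kept.

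**Figure D4:**
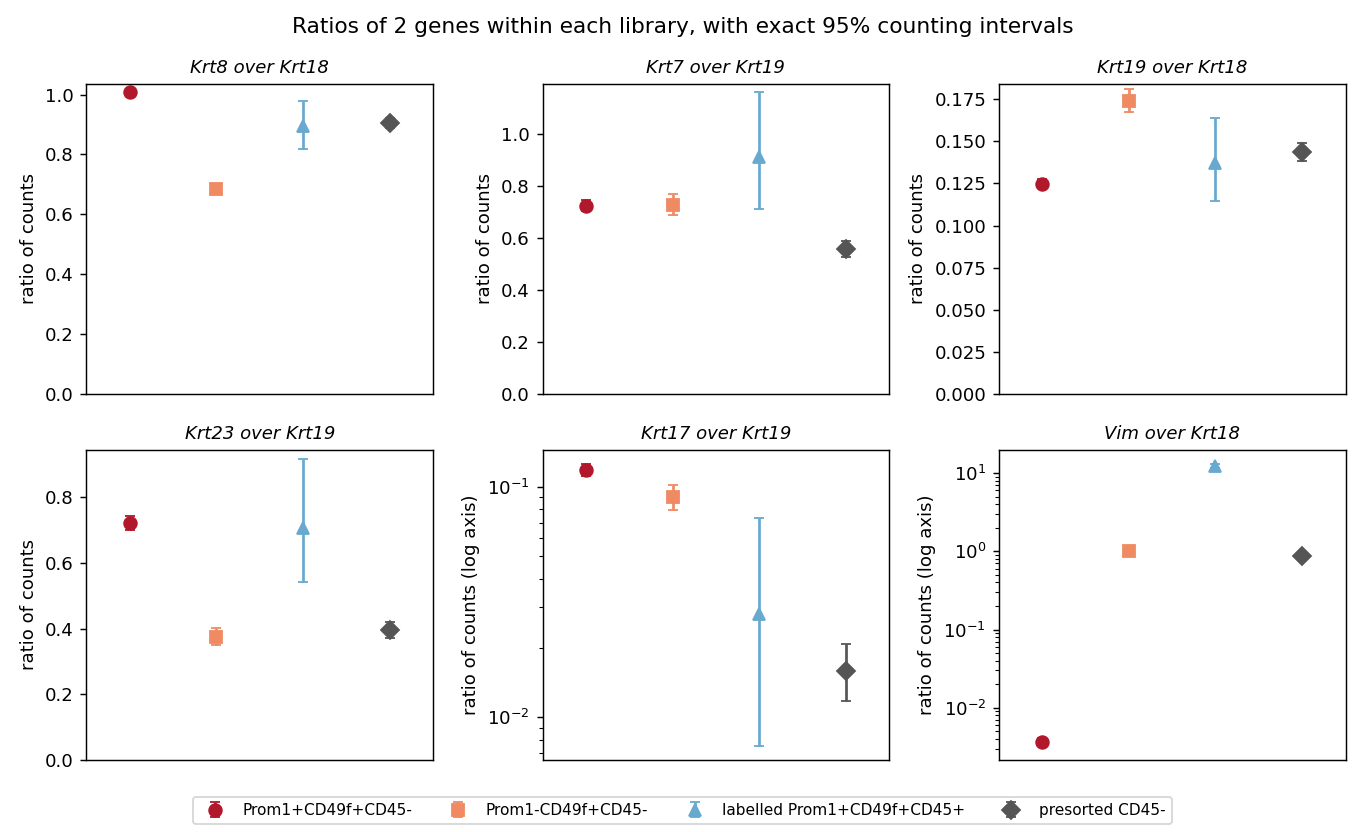
Ratio of the counts of 2 genes within each library, with exact 95% intervals. Krt17 over Krt19 and Vim over Krt18 are on log axes. Krt8 over Krt18 is lowest in the Prom1-CD49f+CD45- library (0.685), and Vim over Krt18 lies at 0.00368 in the Prom1+CD49f+CD45- library and 1.01 in the Prom1-CD49f+CD45- library.

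Krt23 and Krt17, the keratins tied to stress and injury, had larger ratios to presorted cells than the bile duct keratins in Prom1+CD49f+CD45- cells. Krt23 was at 217.8 scaled CPM in Prom1+CD49f+CD45- cells, 78.3 in Prom1-CD49f+CD45- cells, 4.07 for the library labelled Prom1+CD49f+CD45+ and 29.3 for presorted cells. Its ratio to presorted cells was 7.44 (7.02 to 7.90) for Prom1+CD49f+CD45- cells and 2.68 (2.47 to 2.90) for Prom1-CD49f+CD45- cells. Measured against Krt19 in the same library, Krt23 was 0.723 (0.702 to 0.745) for Prom1+CD49f+CD45- cells and 0.375 (0.350 to 0.402) for Prom1-CD49f+CD45- cells. The library labelled Prom1+CD49f+CD45+ gave 0.706 (0.542 to 0.918), close to Prom1+CD49f+CD45- cells, and the presorted library 0.395 (0.370 to 0.421), with an interval that overlapped that of Prom1-CD49f+CD45- cells. Krt23 and Krt19 have transcripts of 1565 and 1576 bases, so this ratio compares genes of nearly 1 length.

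Krt17 had the largest ratio to presorted cells of the keratins tested, in both CD45- sorted populations. It was at 35.8 scaled CPM in Prom1+CD49f+CD45- cells, 18.8 in Prom1-CD49f+CD45- cells, 0.161 for the library labelled Prom1+CD49f+CD45+ and 1.17 for presorted cells. These are 1228, 266, 4 and 52 counts. The ratio to presorted cells was 30.6 (23.2 to 41.2) for Prom1+CD49f+CD45- cells and 16.1 (11.9 to 22.1) for Prom1-CD49f+CD45- cells. Between the 2 sorted populations the ratio was 1.91 (1.67 to 2.19) and was not called, and it was 2.79 (2.44 to 3.20) with the length trend removed. Krt17 was 0.119 (0.112 to 0.126) of Krt19 in Prom1+CD49f+CD45- cells, 0.0901 (0.0791 to 0.102) for Prom1-CD49f+CD45- cells and 0.0158 (0.0118 to 0.0208) for presorted cells. Both sorted CD45- populations thus held more Krt17 per Krt19 than the cells they were sorted from.

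Krt14 went the opposite way. It had 1 count in Prom1+CD49f+CD45- cells, 133 in Prom1-CD49f+CD45- cells, 0 for the library labelled Prom1+CD49f+CD45+ and 61 for presorted cells. These are 0.0292, 9.39, 0 and 1.37 scaled CPM. It was the 1 keratin called lower in Prom1+CD49f+CD45- cells than in Prom1-CD49f+CD45- cells, with a ratio of 0.00311 (7.81e-05 to 0.0176). Against presorted cells the ratio was 0.0213 (0.000530 to 0.123) for Prom1+CD49f+CD45- cells and 6.84 (5.02 to 9.43) for Prom1-CD49f+CD45- cells. Its usual type II partner Krt5 had 0 counts in both CD45- sorted libraries, where 3 counts would be 0.0875 scaled CPM in Prom1+CD49f+CD45- cells and 0.212 scaled CPM in Prom1-CD49f+CD45- cells. In the deposited normalized values, which carry an added 1, the Krt14 ratio of Prom1+CD49f+CD45- to presorted cells did not pass 2-fold.

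The split of reads between Krt14 and Krt17 is uncertain. Their transcripts share 55 runs of 50 bases, and Krt14 shares 188 with Krt16. The estimated counts of Krt14, Krt15, Krt16 and Krt17 were fractional in both CD45- sorted libraries, yet the 4 genes summed to whole numbers within 0.0004, to 1235 in Prom1+CD49f+CD45- cells, 407 in Prom1-CD49f+CD45- cells, 5 for the library labelled Prom1+CD49f+CD45+ and 113 for presorted cells. In Prom1+CD49f+CD45- cells the estimate gave 1228 of these to Krt17. In Prom1-CD49f+CD45- cells it gave 266 to Krt17 and 133 to Krt14, and in presorted cells 51.7 and 61.3.

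Mesothelial markers were highest in the library where Krt14 was highest. Mesothelial cells line the liver surface and contain Krt8, Krt18, Krt19 and Krt7 too. Of the 12 markers 11 were tested. In Prom1-CD49f+CD45- cells 9 of them were called higher than in presorted cells (8.59% of all genes were) and 0 lower (13.9% were). In Prom1+CD49f+CD45- cells 8 were called lower than in Prom1-CD49f+CD45- cells (12.6% of all genes were) and 0 higher (14.0% were). The markers summed to 615 scaled CPM in Prom1+CD49f+CD45- cells, 1423 in Prom1-CD49f+CD45- cells, 91.3 for the library labelled Prom1+CD49f+CD45+ and 332 for presorted cells. Efemp1 and Gpm6a, the 2 markers that were not lower by value in Prom1+CD49f+CD45- cells, at 380 and 217.1 scaled CPM against 225 and 180 scaled CPM in Prom1-CD49f+CD45- cells, made up 97.2% of the sum in Prom1+CD49f+CD45- cells. Without them the sum was 17.4 scaled CPM there, 1019 in Prom1-CD49f+CD45- cells, 73.5 for the library labelled Prom1+CD49f+CD45+ and 186 for presorted cells. Against presorted cells 8 markers were called lower (15.2% of all genes were) and 3 higher (23.0% were) in Prom1+CD49f+CD45- cells. Of the defining genes, Msln was at 1.55 scaled CPM in Prom1+CD49f+CD45- cells and 115 scaled CPM in Prom1-CD49f+CD45- cells, and Upk3b was at 1.17 and 112 scaled CPM. Wt1 had no counts in the library labelled Prom1+CD49f+CD45+. Krt19 counts were 195 times (149 to 260) Msln counts in Prom1+CD49f+CD45- cells, 1.82 times (1.71 to 1.94) in Prom1-CD49f+CD45- cells and 2.19 times (2.06 to 2.33) in presorted cells. The part of these cells in the keratin levels of the Prom1-CD49f+CD45- library was not tested.

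Krt20 and Krt80 were near the limit of detection. Krt20 had 46 counts in Prom1+CD49f+CD45- cells, 32 in Prom1-CD49f+CD45- cells, 17 for the library labelled Prom1+CD49f+CD45+ and 53 for presorted cells, and it was called in 0 of the 5 comparisons. Krt80 had 65, 4, 3 and 39 counts in the same libraries. As a gauge of stray reads, 95% of 1506 chemosensory receptor genes lay at or below 0.817 scaled CPM in Prom1+CD49f+CD45- cells, 0.353 in Prom1-CD49f+CD45- cells, 1.08 for the library labelled Prom1+CD49f+CD45+ and 0.0450 for presorted cells. Krt20 was above that level in all libraries except the one labelled Prom1+CD49f+CD45+. Krt80 was above it in Prom1+CD49f+CD45- cells, at 1.90 scaled CPM, and in presorted cells, at 0.878 scaled CPM, and below it in the 2 other libraries. The gauge takes no account of transcript length, and stray reads were uneven. Receptor genes with a count were 69.3% in Prom1+CD49f+CD45- cells and 27.0% in Prom1-CD49f+CD45- cells. They were 69.5% for the library labelled Prom1+CD49f+CD45+ and 12.3% for presorted cells. An antisense gene, Gm35853, spans 22719 bases of the Krt80 locus, so the strand of Krt80 reads is also uncertain.

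The library labelled Prom1+CD49f+CD45+ had the lowest level by value of each of the 9 keratins tested, with Krt14 at 0 counts there and 1 in Prom1+CD49f+CD45- cells. Against presorted cells 0 keratins were called higher (20.4% of all genes were) and 8 of 9 lower (11.8% of all genes were). Krt8 was 12.4-fold (11.6 to 13.3) lower, Krt18 12.3-fold (11.5 to 13.1) lower and Krt19 12.9-fold (10.9 to 15.3) lower. Krt7 and Krt23 were 7.87-fold (6.58 to 9.47) and 7.19-fold (5.87 to 8.89) lower. Krt14 was 11.4-fold lower with its 0 counts set to the floor of 3, a value that the floor sets, and the counting interval at that floor was 3.71 to 56.6. Krt17 and Krt80 rest on 4 and 3 counts there, below the 1.08 scaled CPM that 95% of chemosensory receptor genes did not exceed. Krt80 was not called with library totals. In the deposited normalized values 5 keratins passed 2-fold, without Krt14, Krt17 and Krt80. Epcam was at 10.4 scaled CPM in this library against 107 in presorted cells, and 19 of 22 cholangiocyte markers were called lower. Endothelial markers summed to 16820 scaled CPM in this library and 12470 in presorted cells, with 0 of 12 called either way.

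Prom1+CD49f+CD45- cells exceeded the library labelled Prom1+CD49f+CD45+ in 7 of 9 keratins (12.0% of all genes were called higher), and 0 were called lower (12.6% of all genes were). The ratio was 65.0 (60.9 to 69.4) for Krt8, 57.5 (54.1 to 61.2) for Krt18, 53.5 (44.0 to 65.8) for Krt23, 52.3 (44.3 to 62.1) for Krt19 and 41.6 (35.0 to 49.9) for Krt7. Krt17 had the largest ratio, 222 (86.6 to 817), against 4 counts. Krt20 was at 1.34 and 0.685 scaled CPM and was not called. Krt8 over Krt18, at 0.893, and Krt19 over Krt18, at 0.137 (0.115 to 0.164), lay in the library labelled Prom1+CD49f+CD45+ between the values of the CD45- sorted populations.

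Other keratins were nearly silent. Of 17 further epithelial keratins 2 passed the count filter, and Krt10, a type I keratin of differentiated epidermis, was the most abundant of them. Krt10 was at 4.58 scaled CPM in Prom1+CD49f+CD45- cells, 5.65 in Prom1-CD49f+CD45- cells, 2.26 for the library labelled Prom1+CD49f+CD45+ and 1.91 for presorted cells. It was called higher in Prom1-CD49f+CD45- cells than in presorted cells, with a ratio of 2.95 (2.15 to 4.06). Krt6a and Krt6b, type II partners of Krt17 in injured skin, had 0 counts in all 4 libraries. Of 25 inner root sheath and hair keratins measured 2 passed the filter, and the list summed to at most 2.30 scaled CPM in a library.

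Genes that anchor keratin filaments at desmosomes and other junctions were higher in Prom1+CD49f+CD45- cells than in Prom1-CD49f+CD45- cells. Of the 15 tested, 10 were called higher and 0 lower, where 14.0% and 12.6% of all genes were, with a median log2 ratio of 1.90 against 0.33 over all genes. Dsg2, the desmosomal cadherin of simple epithelia, was at 1684 scaled CPM in Prom1+CD49f+CD45- cells, 152 in Prom1-CD49f+CD45- cells, 30.5 for the library labelled Prom1+CD49f+CD45+ and 297 for presorted cells, and its ratio between the CD45- sorted populations was 11.1 (10.6 to 11.5). Ppl, the plakin periplakin, had a ratio of 10.2 (9.16 to 11.3). Dsp, the desmoplakin that ties keratins to desmosomes, was named after its values were seen and had a ratio of 8.45 (7.62 to 9.40). The plakins Plec and Macf1, which also bind other filaments, had ratios of 0.700 (0.666 to 0.736) and 0.544 (0.519 to 0.571) and were not called. Against presorted cells, 9 of the 15 were called higher and 0 lower in Prom1+CD49f+CD45- cells, where 23.0% and 15.2% of all genes were. In Prom1-CD49f+CD45- cells 0 were called higher and 2 lower, where 8.59% and 13.9% of all genes were. The 2 called lower were 13.3% of the linkers, near the share of all genes. In Prom1-CD49f+CD45- cells the keratins had a median log2 ratio of 1.42 to presorted cells and the linkers one of -0.59. It was 0.065 over all genes.

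Dsg2 counts were 0.692 (0.685 to 0.699) of Krt8 counts in Prom1+CD49f+CD45- cells, 0.186 (0.177 to 0.194) in Prom1-CD49f+CD45- cells, 0.813 (0.738 to 0.896) for the library labelled Prom1+CD49f+CD45+ and 0.638 (0.625 to 0.653) for presorted cells. The Prom1-CD49f+CD45- library had the least Dsg2 per Krt8. Most linkers have long transcripts, 5766 bases for Dsg2 and 9592 for Dsp, and keratins short ones. With the length trend removed, 9 linkers were called higher and 1 lower between the CD45- sorted populations, and the median log2 ratio was 1.75 for the linkers and 1.48 for the keratins, in place of 1.90 and 0.93. The ratio of Dsg2 was then 7.21 (6.91 to 7.53) and that of Krt8 was 3.63 (3.56 to 3.70), and the linker called lower was Macf1. Against presorted cells the medians in Prom1-CD49f+CD45- cells were then -0.30 for the linkers and 0.84 for the keratins. In Prom1+CD49f+CD45- cells 9 linkers were then called higher than in presorted cells and 2 lower, Plec and Macf1. Of the 21640 genes tested, 4570 were then called higher and 3650 lower in that comparison.

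**Figure D5:**
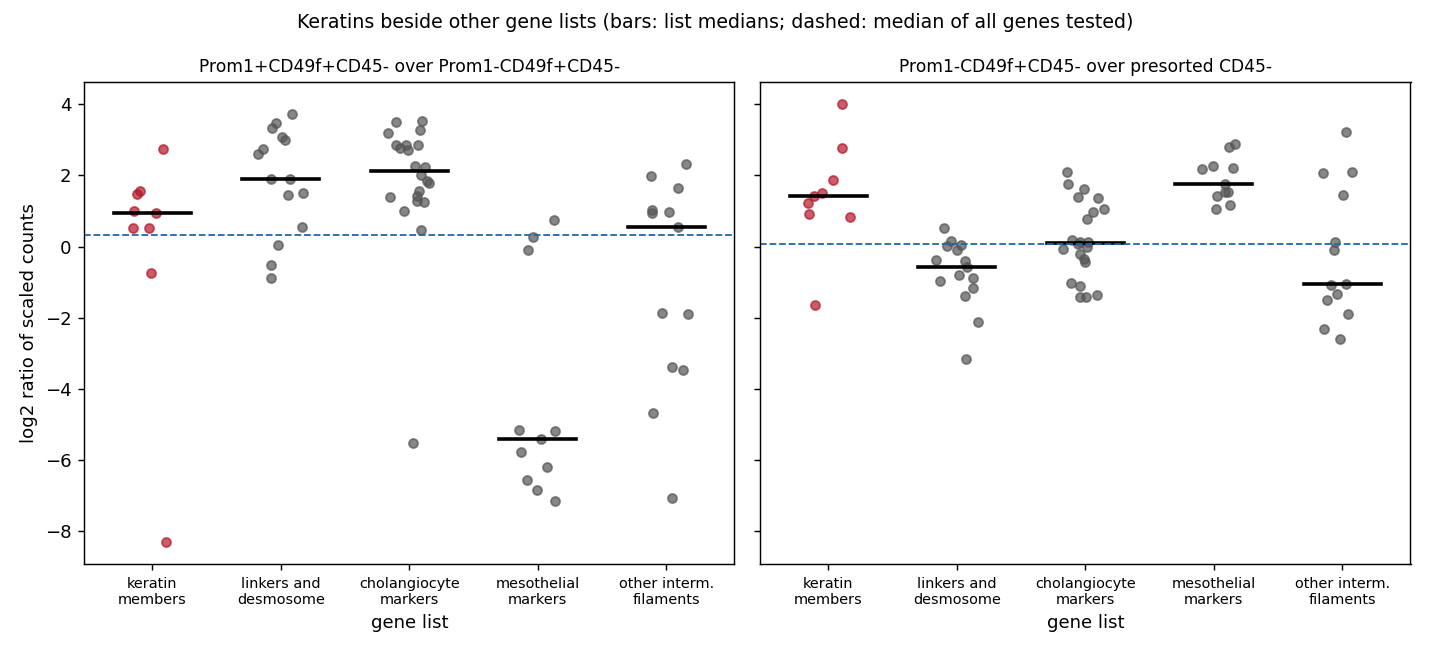
Log2 ratio of scaled counts of single genes in 5 lists, for Prom1+CD49f+CD45- cells over Prom1-CD49f+CD45- cells on the left and Prom1-CD49f+CD45- cells over presorted cells on the right, with black bars at list medians and a dashed line at the median of all genes tested. On the left, keratins (median 0.93) lie below linkers (1.90) and cholangiocyte markers (2.13). On the right, keratins (1.42) lie above both lists (-0.59 and 0.09) and near mesothelial markers (1.76).

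Vimentin, the intermediate filament of mesenchymal, endothelial and mesothelial cells, was nearly missing where keratins were highest. Vim was at 8.87 scaled CPM in Prom1+CD49f+CD45- cells, 1206 in Prom1-CD49f+CD45- cells, 519 for the library labelled Prom1+CD49f+CD45+ and 445 for presorted cells. Vim counts were 0.00368 (0.00328 to 0.00412) of Krt18 counts in Prom1+CD49f+CD45- cells, 1.01 (0.984 to 1.03) in Prom1-CD49f+CD45- cells, 12.4 (11.6 to 13.2) for the library labelled Prom1+CD49f+CD45+ and 0.863 (0.847 to 0.880) for presorted cells. Nes, the nestin of progenitor and vascular cells, was at 0.759, 19.5, 58.7 and 49.1 scaled CPM in the same libraries. Of 13 other intermediate filament genes tested, 5 were called lower in Prom1+CD49f+CD45- cells than in Prom1-CD49f+CD45- cells (12.6% of all genes were). The 1 called higher (14.0% of all genes were) was the nuclear lamin gene Lmnb1, with a ratio of 3.15 (2.55 to 3.92). Lmna, the lamin of differentiated cells, was 0.0977 (0.0955 to 0.100) of Krt18 in Prom1+CD49f+CD45- cells, 0.0967 (0.0919 to 0.102) in Prom1-CD49f+CD45- cells, 0.721 (0.656 to 0.793) for the library labelled Prom1+CD49f+CD45+ and 0.240 (0.233 to 0.247) for presorted cells. The closeness of the first 2 values depends on transcript length. With the length trend removed, the ratio of Prom1+CD49f+CD45- to Prom1-CD49f+CD45- cells was 1.65 (1.56 to 1.74) for Lmna and 3.08 (3.03 to 3.13) for Krt18, in place of 2.03 and 2.01.

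Of 9 genes of other Mallory-Denk body proteins, 2 were called higher and 2 lower in Prom1+CD49f+CD45- cells than in Prom1-CD49f+CD45- cells, shares near those of all genes tested (14.0% and 12.6%). Sqstm1, the p62 adaptor that collects ubiquitinated keratin, was at 243 scaled CPM in Prom1+CD49f+CD45- cells, 279 in Prom1-CD49f+CD45- cells, 192 for the library labelled Prom1+CD49f+CD45+ and 350 for presorted cells and was not called in the comparisons with presorted cells or between the CD45- sorted populations. The ubiquitin gene Ubb had a ratio of 0.457 (0.452 to 0.462) between the CD45- sorted populations and was called lower. Tgm2, the transglutaminase that crosslinks keratins, was at 200 scaled CPM in Prom1+CD49f+CD45- cells and 462 scaled CPM in presorted cells, a ratio of 0.432 (0.420 to 0.444) that was called lower.

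Hepatocytes also contain Krt8 and Krt18, and their RNA was present in every library. The 17 hepatocyte markers summed to 12790 scaled CPM in Prom1+CD49f+CD45- cells, 9376 in Prom1-CD49f+CD45- cells, 1045 for the library labelled Prom1+CD49f+CD45+ and 47460 for presorted cells. The abundant secreted protein genes Trf, Alb and Ahsg were 91.6% of the sum in Prom1+CD49f+CD45- cells, and the 14 other markers summed to 1070 scaled CPM there, 2997 in Prom1-CD49f+CD45- cells, 375 for the library labelled Prom1+CD49f+CD45+ and 19740 for presorted cells. Of the 17 markers, 2 were called higher and 10 lower in Prom1+CD49f+CD45- cells than in Prom1-CD49f+CD45- cells, where 14.0% and 12.6% of all genes were. Krt18 counts were 0.744 (0.737 to 0.751) of Alb counts in Prom1+CD49f+CD45- cells, 0.948 (0.928 to 0.968) in Prom1-CD49f+CD45- cells, 0.274 (0.256 to 0.294) for the library labelled Prom1+CD49f+CD45+ and 0.0978 (0.0965 to 0.0992) for presorted cells. Both CD45- sorted libraries thus held more keratin RNA and less hepatocyte RNA than presorted cells, and the part of hepatocyte RNA in the Krt8 and Krt18 levels was not tested.

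The genes whose pattern over the 4 libraries was most like each keratin were taken from 12704 protein-coding genes, by the distance between centred log2 values of scaled CPM with 1 added. For Krt8 the nearest were Clu (distance 0.16), the tetraspanin-like Tm4sf4 (0.18) and the surfactant protein gene Sftpd (0.34). Clu was at 29910, 11340, 525 and 6632 scaled CPM in the order of libraries used above, the presorted library last. Krt18 and Krt19 shared their nearest gene, Efemp1, an extracellular matrix gene on the mesothelial list, at distances of 0.22 and 0.17. Krt18 had the tight junction gene Cldn3 next, and Krt19 had the monooxygenase gene Fmo2. Krt7 was nearest to Fxyd3, Tspan8 and Mmp7, and Krt23 to Fstl3 (0.10), Cldn6 (0.15) and Bex1 (0.21). Krt17 had no close match. Its nearest were the injury-responsive genes Ccn1 (0.58) and Ankrd1 (1.00), with Rassf9 (1.05) after them. Ccn1 was at 1706 scaled CPM in Prom1+CD49f+CD45- cells, 747 in Prom1-CD49f+CD45- cells, 74.1 for the library labelled Prom1+CD49f+CD45+ and 120 for presorted cells.

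Krt14 stood apart from its own family by the same measure. Its nearest genes were the atrial myosin light chain gene Myl7 (0.09), Itm2a (0.24) and Fam180a (0.28), while its distance to the other 6 keratins with at least 100 counts in a library ran between 3.79 for Krt7 and 4.49 for Krt8. Myl7 was at 0.117 scaled CPM in Prom1+CD49f+CD45- cells, 9.54 in Prom1-CD49f+CD45- cells, 0 for the library labelled Prom1+CD49f+CD45+ and 1.49 for presorted cells. Among the other keratins the distances were smallest for Krt18 and Krt19 (0.35) and for Krt8 and Krt18 (0.41). These distances describe 4 libraries and carry no test.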

How the data were processed

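The authors deposited estimated counts per gene (reads shared between genes are split, so values need not be whole) and normalized values, which are CPM with 1 added. Those CPM rest on library sizes other than the sums of the gene counts, by a factor that differs between libraries. Krt8 had 83397 of 30239681 counts in Prom1+CD49f+CD45- cells and a deposited value of 1850.94, lower than that share gives. The submitters' processing notes list TopHat2, Partek 3 and mm10, while their settings and the use of strand were not given in the sources used here. PolyA selection and a stranded kit, with cycle numbers set by input, were used per the labels' protocols, but the title speaks of Quant-seq, which reads 3′ ends. Which holds is unknown, and it bears on levels per length. Of the columns, 0 belonged to no sample. The column that names only CD45 was taken as the presorted cells.

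Estimated counts were rounded and scaled by TMM in edgeR 4.0.16 (R 4.3.3). Transcript lengths, positions and symbols are those of GENCODE vM21, which matched 40254 of 41128 identifiers, and promoters those of RefSeq. Ratios carry exact conditional binomial intervals (Clopper-Pearson, scipy 1.17.1). A library at 0 was set to 3 counts, which is 0.0875, 0.212, 0.121 and 0.0675 scaled CPM for Prom1+CD49f+CD45-, Prom1-CD49f+CD45-, the library labelled Prom1+CD49f+CD45+ and presorted CD45-. Genes outside the 10 were named by rule: up to 4 of each list by mean level, the sorted proteins' genes and the 3 genes of nearest pattern, and Upk3b, Wt1, Epcam, Dsp, Krt6a and Krt6b were named after their values were seen. A few genes that the rule takes are not reported here. Members, lists and rules were chosen with earlier results of these data known.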

Additional observations from a re-analysis of the deposited data

How the results depend on the processing

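No called keratin changed direction under any of the 7 alternatives. Of 70 counts of called keratins under them, 66 stayed within 1.5 times. A filter of 50 counts could not change these counts, since every keratin tested passed it. With the length trend removed, 6 keratins were called higher in Prom1+CD49f+CD45- cells over Prom1-CD49f+CD45- cells (3 otherwise), and 3 in Prom1-CD49f+CD45- cells over presorted cells (6 otherwise). In the deposited normalized values the added 1 pulls ratios of low levels towards 1, and the library sizes are others. With them 0 keratins were lower than in presorted cells in Prom1+CD49f+CD45- cells (1 otherwise), and 5 in the library labelled Prom1+CD49f+CD45+ (8 otherwise). Of the single log2 ratios 89 of 308 moved beyond their counting interval, as did 38 of 80 shares under another length. Both changes of the count filter and the chemosensory gauge leave a ratio as it is, so all 44 ratios stayed under each. The ratios that moved were 37 of 44 in the deposited normalized values and 21 with library totals. They were 19 with the length trend removed and 12 with DESeq2 size factors. Library totals shifted the median log2 ratio of all genes to 0.56 between the CD45- sorted populations (0.33 with TMM), 0.59 for Prom1+CD49f+CD45- (0.18), 0.25 for Prom1-CD49f+CD45- (0.07) and 0.44 for the library labelled Prom1+CD49f+CD45+ (0.10) against presorted cells. They put 65.0%, 71.9% and 50.5% of calls on the higher side in the first 3 of these, against 52.6%, 60.2% and 38.3% with TMM, and the deposited values put 55.3% there in the third. A filter of 50 counts left 3090 genes higher in Prom1+CD49f+CD45- cells (4987 otherwise) and 1785 in the library labelled Prom1+CD49f+CD45+ (4408 otherwise) than in presorted cells. Lengths from a protein table were not run, and coding lengths took their place. These, the alternatives for the other lists and the marker sums without single genes were chosen after seeing the data. No library could be left out, with 1 per group. No paired analysis was possible for the same reason, and the labels give no replicate numbers. Depth limits Krt5, Krt14, Krt17, Krt20 and Krt80 in the libraries where they had few counts.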

Other observations

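Some genes that act beside keratins in squamous and basal epithelia were higher in Prom1+CD49f+CD45- cells. Of 13 squamous and basal epithelial partners tested, 5 were called higher and 1 lower than in Prom1-CD49f+CD45- cells, and 8 higher and 1 lower than in presorted cells. Of all genes tested, 14.0% were called higher and 12.6% lower in the first of these comparisons, and 23.0% and 15.2% in the second. Some of these genes were near the level of stray reads, and 3 of the 13 had 0 counts in presorted cells. One was Dsg3, named after its values were seen, at 0.613 scaled CPM in Prom1+CD49f+CD45- cells and 1.37 for the library labelled Prom1+CD49f+CD45+. The chemosensory gauge stood at 0.817 scaled CPM in Prom1+CD49f+CD45- cells and was not applied to the calls of this list. Itgb4, the integrin chain that anchors keratins at hemidesmosomes, was at 65.3 scaled CPM in Prom1+CD49f+CD45- cells, 15.1 in Prom1-CD49f+CD45- cells, 3.91 for the library labelled Prom1+CD49f+CD45+ and 12.6 for presorted cells. Its partner chain Itga6, the gene of the sorted CD49f protein, was at 72.9, 50.5, 127 and 110 scaled CPM in the same libraries, and was called lower in Prom1-CD49f+CD45- cells than in presorted cells, with a ratio of 0.458 (0.422 to 0.495). The cornified envelope gene Sprr1a, named after its values were seen, was at 8.96, 18.7, 0.0806 and 1.13 scaled CPM, highest in the Prom1-CD49f+CD45- library as Krt14 was. Unlike Krt14, it was higher by value in Prom1+CD49f+CD45- cells than in presorted cells, where Krt14 was at 0.0292 and 1.37 scaled CPM.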
